A study of Mus musculus with 12 samples.

Results

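Ptbp1 was silenced in mouse cardiac fibroblasts that were being reprogrammed towards cardiomyocyte-like cells, and 2 libraries with a hairpin against Ptbp1 (shPtbp1) were set against 2 libraries with a non-targeting hairpin (shNT). The features described are the 12636 genes, of 23423 in the table of the whole series, with at least 1 CPM, reads per 1000000 reads assigned to genes, in at least 2 of these 4 libraries. Of these genes, 73 reached the minimum in both shPtbp1 libraries only and 70 in both shNT libraries only. Genes at the edge of the rule were Chit1, inside with 1.002 and 1.134 CPM with shPtbp1 and 0.7205 and 0.9732 CPM with shNT, and Vat1l, outside with 0.6433 and 0.6421 CPM against 0.9976 and 1.096 CPM.

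All 4 libraries came from Thy1-sorted cardiac fibroblasts of CD1 mice at postnatal day 1.5, put into culture and collected at day 3 after transduction. The shPtbp1 wells received the retrovirus pMXs-puro-MGT, which carries Mef2c, Gata4 and Tbx5 (MGT), transcription factors of the developing heart, together with a lentivirus for the hairpin shPtbp1-271. The shNT wells received the same retrovirus with a lentivirus for the non-targeting hairpin. Of the other day 3 groups of the series, the MGT wells had this retrovirus and no lentivirus, and the control wells had a control vector, called lacZ in the titles and empty pMXs-puro in other labels. Each group has 2 libraries. The wells with a hairpin thus held a second virus that the MGT and control wells did not, and only 1 Ptbp1 hairpin was used. The labels do not give the share of cells that each virus reached, and they do not say whether the replicates are different animals or cultures. The p-values therefore speak only of how far these libraries spread, which may be technical. One shPtbp1 library, replicate 2, has a source label that names Ptbp2, while its title and transduction label name Ptbp1.

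PTBP1 is an RNA-binding protein that binds pyrimidine-rich sequence and represses the inclusion of many exons. It falls during the differentiation of neurons and of striated muscle, where its paralog PTBP2 or other regulators take over part of its targets. PTBP1 is known to cause skipping of a short exon in its own transcript and in that of Ptbp2, which shifts the reading frame and sends the transcript to nonsense-mediated decay. The series' design text names changes of splicing after loss of Ptbp1 as one purpose of these wells. The values here are gene levels, so exon inclusion itself was not analysed here.

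The exons by which PTBP1 acts on its own and its paralog's transcript are shown because they are the known link between the PTB genes described next. In the GENCODE annotation (GRCm38, also called mm10), exon 10 of 14 of transcript Ptbp1-216 lies at chr10:79862014-79862047 on the plus strand. Exon 10 of 14 of transcript Ptbp2-201 lies at chr3:119724612-119724645 on the minus strand. The exon is in capitals, with 30 bases of the exon before it and of the exon after it in lower case, 5′ to 3′.
Ptbp1: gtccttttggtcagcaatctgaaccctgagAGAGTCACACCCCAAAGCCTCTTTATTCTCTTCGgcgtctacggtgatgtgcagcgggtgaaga
Ptbp2: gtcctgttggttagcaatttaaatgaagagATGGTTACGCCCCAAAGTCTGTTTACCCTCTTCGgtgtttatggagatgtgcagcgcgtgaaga
Both exons are 34 bases long, which is not a multiple of a codon, and 26 of the 34 bases are identical. With the exon the reading frame runs for 555 codons in Ptbp1 and 532 in Ptbp2. Without it a stop is met after 379 codons in Ptbp1 and 356 in Ptbp2, 364 bases before the last exon junction in both. The annotation holds 3 nonsense-mediated decay transcripts of Ptbp1 and 2 of Ptbp2, and 2 of each gene span this place without the exon.

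The targeted gene was low in both shPtbp1 libraries. Ptbp1 (chromosome 10, 79854427 to 79864771) had 81.3 and 78.7 scaled CPM with shPtbp1, 360.0 and 365 with shNT, 364 and 380.1 with MGT alone and 354 and 361 with the control vector. Scaled CPM are CPM divided by a library factor. The shPtbp1 libraries lay below the other 6 day 3 libraries, and the shNT libraries lay within the range of the wells with no hairpin. The log2 fold change was -2.17 ± 0.035 (standard error, SE; limma adjusted p = 4.82e-21). Fold changes here are on the log2(scaled CPM + 0.5) scale, which understates the change of low genes. Ptbp2 (chromosome 3, 119718742 to 119784466), the paralog carrying the second exon printed above, had 133 and 136 scaled CPM with shPtbp1, 30.5 and 29.4 with shNT, 27.2 and 25.4 with MGT alone and 26.1 and 23.6 with the control vector. Both shPtbp1 libraries stood above every other day 3 library, with a log2 fold change of 2.15 ± 0.049 (adjusted p = 4.08e-18). The 2 shPtbp1 libraries were alike in both genes, including the library whose source label names Ptbp2. Ptbp3, the third member of the family, had 134 and 129.8 scaled CPM with shPtbp1, against 146 and 145 with shNT, a log2 fold change of -0.14 (adjusted p = 0.00395), so 1 of the 3 family genes rose and 2 fell.

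The 4 libraries held 73199831 to 90214929 assigned reads, of 49320858 to 94005212 in the series, so that 1 CPM stood for 73.2 to 90.2 reads. Across genes, replicates differed with an SD of 0.0929 log2 units with shPtbp1 and 0.0761 with shNT. The tests used limma on all 12 libraries of the series with Benjamini-Hochberg adjustment over the 12636 genes and a threshold of 0.05, and a gene is called higher or lower where it passed. Of the genes tested, 2364 were called higher with shPtbp1 (18.7%) and 2474 lower (19.6%), 38.3% in either direction, and a list whose shares are near these is not a result about the list. The median log2 fold change of all genes was 2.5e-05. Most called changes were small. The median was 0.26 among the genes called higher and -0.25 among those called lower, and 4139 calls (85.6%) were under 0.5 log2 units. At least 2-fold higher were 57 genes (0.451%) and at least 2-fold lower 30 (0.237%). These counts depend on how low genes are handled: they were 20 and 12 with a pseudocount of 2, and 91 and 55 with edgeR on reads recovered from the CPM. In 67.7% of genes both shPtbp1 libraries lay outside the range of the shNT libraries. The share called was 28.4% under 5 scaled CPM, 35.9% from 5 to 50 and 46.7% at 50 or more. A log2 fold change in brackets is that of shPtbp1 over shNT, with its SE where given, and its gene passed the test unless the sentence says otherwise.

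**Figure D1:**
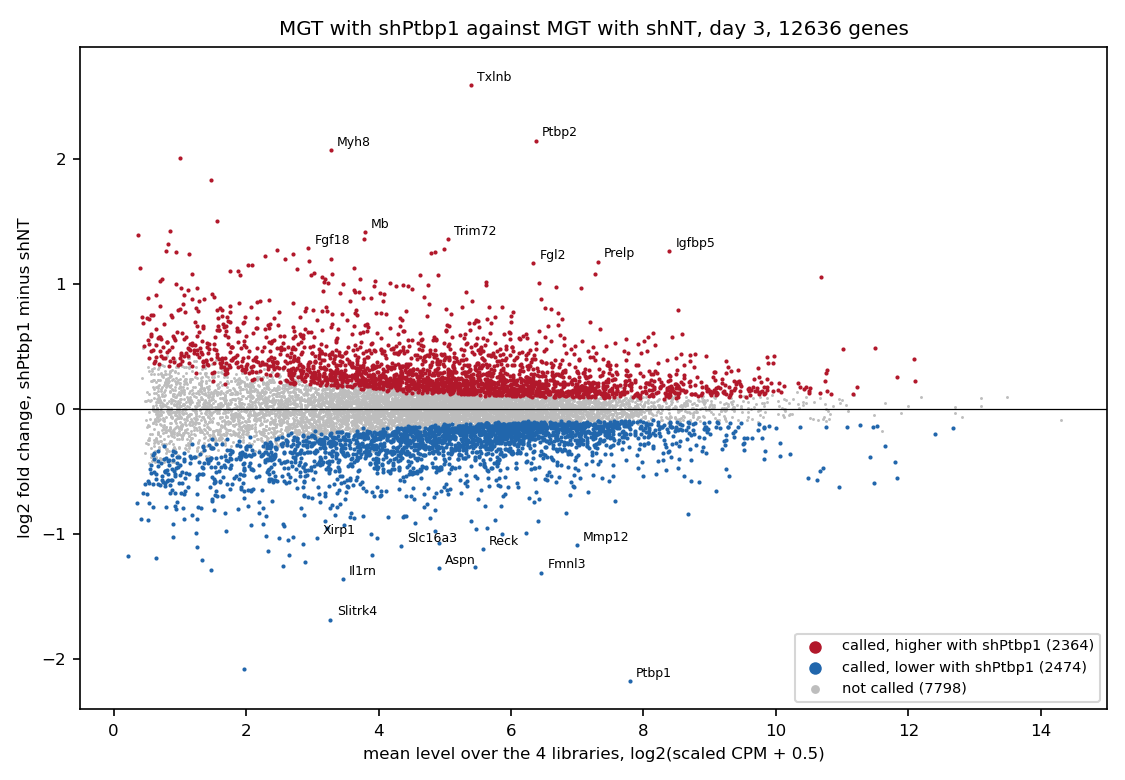
Change against level for 12636 genes. The horizontal axis is the mean level over the 4 libraries as log2(scaled CPM + 0.5), the vertical axis is the log2 fold change of shPtbp1 over shNT, and each point is a gene, red where called higher (2364), blue where called lower (2474) and grey otherwise; Txlnb and Ptbp2 are the highest of the labelled points and Ptbp1 the lowest.

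The 15 largest increases and the 15 largest decreases were taken among called, annotated genes whose shPtbp1 and shNT libraries did not overlap and whose higher group had a mean of 10 scaled CPM or more. Of the increases, Txlnb, a taxilin of striated muscle, led with 72.0 and 71.9 scaled CPM with shPtbp1, 11.3 and 11.7 with shNT, 8.36 and 8.75 with MGT alone and 3.98 and 3.35 with the control vector, a log2 fold change of 2.59 ± 0.072. Trim72, a muscle protein that reseals the plasma membrane, had 46.0 and 48.2 scaled CPM with shPtbp1, 18.6 and 17.5 with shNT, 20.9 and 18.7 with MGT alone and 13.8 and 15.54 with the control vector, a log2 fold change of 1.36 ± 0.084 (adjusted p = 5.31e-11). Corin, the cardiac protease that activates natriuretic peptides, had 37.7 and 39.2 scaled CPM with shPtbp1, 16.7 and 15.2 with shNT, 15.9 and 14.1 with MGT alone and 4.48 and 4.58 with the control vector, a log2 fold change of 1.25 ± 0.068 (adjusted p = 9.09e-12). In these 3 genes the shPtbp1 libraries were the highest of the day 3 libraries, and the shNT and MGT libraries lay close together. In bulk RNA, more cells of a type and more RNA per cell cannot be told apart, in these and in later results. Prelp, a small leucine-rich proteoglycan of connective tissue, had 218 and 222 scaled CPM with shPtbp1, 97.1 and 96.0 with shNT and 104 and 120.3 with MGT alone (log2 fold change 1.18). Its relative Fmod had 40.1 and 40.8 scaled CPM with shPtbp1, 16.5 and 16.7 with shNT and 19.2 and 23.0 with MGT alone (log2 fold change 1.26). Both were above all other day 3 libraries with shPtbp1, while Aspn of the same family was lower, with a log2 fold change of -1.27. In Prelp and Fmod the shNT libraries were also below the other 6 day 3 libraries. The control vector wells had 97.3 and 103 scaled CPM of Prelp and 25.3 and 25.4 of Fmod. Fgl2, a secreted fibrinogen-like protein, had 110.1 and 112 scaled CPM with shPtbp1, 49.2 and 49.1 with shNT and 64.4 and 63.6 with MGT alone (log2 fold change 1.17). Ccdc88c, a regulator of Wnt signalling, had 19.2 and 19.3 scaled CPM with shPtbp1, 7.16 and 7.19 with shNT and 10.7 and 11.03 with MGT alone (log2 fold change 1.36). Here too both shPtbp1 libraries were the highest of the day 3 libraries.

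In other large increases the shNT libraries lay well below MGT alone. Myoglobin, Mb, the oxygen store of muscle, had 19.3 and 20.0 scaled CPM with shPtbp1, 7.46 and 6.63 with shNT, 19.8 and 20.0 with MGT alone and 6.61 and 5.86 with the control vector, so its shPtbp1 libraries were at the MGT level and its shNT libraries near control. The perinatal myosin heavy chain Myh8 had 16.7 and 13.7 scaled CPM with shPtbp1, 3.01 and 3.41 with shNT, 18.03 and 17.97 with MGT alone and 15.9 and 16.0 with the control vector. Aggf1, an angiogenic factor, had 45.0 and 44.1 scaled CPM with shPtbp1, 17.99 and 18.1 with shNT, 40.7 and 38.1 with MGT alone and 40.5 and 40.7 with the control vector. In Myh8 and Aggf1 the shNT libraries were below the control as well. Igfbp5, an insulin-like growth factor binding protein, had 477 and 471 scaled CPM with shPtbp1, 200.02 and 193 with shNT, 395 and 397 with MGT alone and 171 and 166 with the control vector. Psap, the lysosomal prosaposin, had 2258 and 2196 scaled CPM with shPtbp1, 1078 and 1059 with shNT, 3276 and 3150.3 with MGT alone and 3039.6 and 3125 with the control vector, with the shPtbp1 libraries between the shNT libraries and the wells with no hairpin. For Rassf2, a Ras-association domain protein, the values were 10.96 and 9.44 scaled CPM with shPtbp1, 4.37 and 4.03 with shNT, 20.3 and 20.6 with MGT alone and 21.4 and 22.1 with the control vector. The log2 fold changes of Mb, Myh8, Aggf1, Igfbp5, Psap and Rassf2 were 1.42, 2.08, 1.28, 1.27, 1.06 and 1.18 for shPtbp1 over shNT. Over MGT alone they were -0.018, -0.25, 0.17, 0.26, -0.53 and -0.97 for shPtbp1, and -1.44, -2.32, -1.10, -1.01, -1.59 and -2.16 for shNT. These comparisons share libraries, so they are set side by side only. Of the 57 genes at least 2-fold higher, 42 had both shPtbp1 libraries above the other 6 day 3 libraries (16.0% of all genes did) and 25 had both shNT libraries below the other 6 (11.8%). Choosing genes that differ between the groups itself raises both counts.

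Of the 15 largest decreases under the same limit on level, Ptbp1 was given above. Genes at lower levels, such as Xirp2, fell outside that limit. Fmnl3, a formin that bundles and elongates actin filaments, had 52.7 and 47.8 scaled CPM with shPtbp1, 124 and 125 with shNT, 107 and 109 with MGT alone and 122 and 132 with the control vector (log2 fold change -1.31). Il1rn, the antagonist of the interleukin 1 receptor, had 5.44 and 5.95 scaled CPM with shPtbp1, 16.1 and 14.6 with shNT, 20.3 and 18.2 with MGT alone and 19.4 and 19.2 with the control vector (log2 fold change -1.36). Reck, a membrane-anchored inhibitor of matrix metalloproteinases, had 31.1 and 27.9 scaled CPM with shPtbp1, 64.6 and 64.5 with shNT, 75.6 and 81.9 with MGT alone and 60.9 and 64.1 with the control vector, a log2 fold change of -1.12 ± 0.051 (adjusted p = 5.21e-13). The shPtbp1 libraries were the lowest of the 8 day 3 libraries in each of these genes. The amino acid transporter family gene Slc38a6 had 8.35 and 8.99 scaled CPM with shPtbp1, 20.1 and 20.1 with shNT and 32.7 and 29.6 with MGT alone (log2 fold change -1.17). The lactate transporter Slc16a3 had 12.3 and 12.5 scaled CPM with shPtbp1, 27.2 and 26.9 with shNT and 24.6 and 23.8 with MGT alone (log2 fold change -1.09). Of these 2, Slc38a6 stood lower with shNT than in the MGT wells and Slc16a3 higher. Mov10, an RNA helicase, had 40.2 and 36.2 scaled CPM with shPtbp1, 78.6 and 74.9 with shNT and 53.5 and 53.8 with MGT alone, a log2 fold change of -0.999. Slitrk4, a neuronal transmembrane protein, had 4.74 and 3.51 scaled CPM with shPtbp1, 13.9 and 14.6 with shNT and 8.18 and 7.40 with MGT alone (log2 fold change -1.68), with the shNT libraries highest. All of the 15 largest decreases under that limit had both shPtbp1 libraries below the other 6 day 3 libraries, and in 6 of them both shNT libraries were also above the other 6. Over the 30 genes at least 2-fold lower the counts were 27 and 14, against 13.2% and 16.3% of all genes. As with the increases, choosing genes that differ between the groups itself raises all of these counts.

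**Figure D2:**
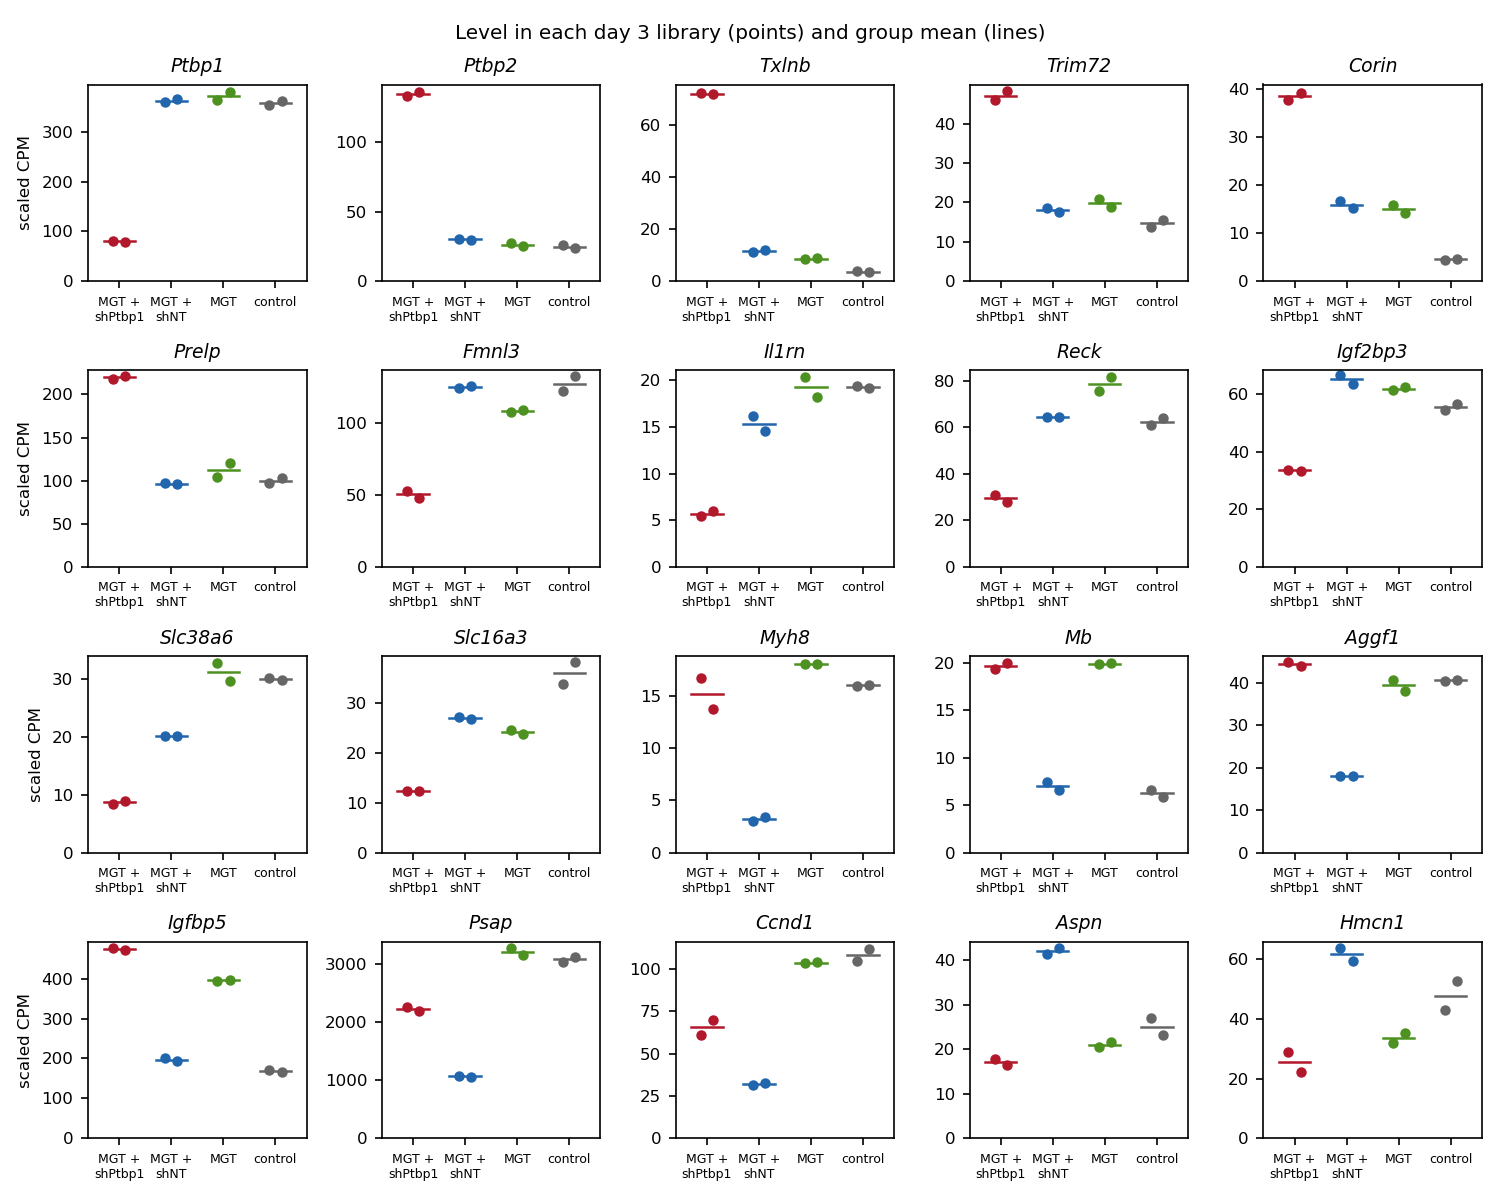
Level of 20 genes in each day 3 library, in scaled CPM on a linear axis from 0, in the order MGT with shPtbp1, MGT with shNT, MGT alone and control vector; points are libraries and lines are group means. In Ptbp2, Txlnb, Trim72 and Corin the shPtbp1 points stand above the other 6, in Fmnl3, Il1rn and Reck below them, and in Myh8, Aggf1, Psap and Ccnd1 the shNT points lie below the other 6.

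Of 15 genes reported elsewhere as targets of PTB proteins with effects on transcript level, 7 were higher (46.7%) and 3 lower (20%). Of all genes 18.7% were higher and 19.6% lower, so the lower share was near that of all genes. Gabbr1, a GABA receptor subunit, had 66.9 and 62.5 scaled CPM with shPtbp1, 36.4 and 36.5 with shNT and 29.2 and 27.6 with MGT alone (log2 fold change 0.82 ± 0.047, adjusted p = 1.76e-11). Vamp2, a synaptic vesicle membrane protein, had 63.2 and 66.9 scaled CPM with shPtbp1, 48.2 and 47.7 with shNT and 46.6 and 45.2 with MGT alone (log2 fold change 0.44). The FGF receptor Fgfr2 had 36.6 and 38.7 scaled CPM with shPtbp1, 28.4 and 28.8 with shNT and 23.6 and 22.7 with MGT alone (log2 fold change 0.39). In these 3 genes the shPtbp1 libraries were above shNT and MGT. The tropomyosins, which line the actin filament, moved apart. Tpm1 had 3352 and 3389.9 scaled CPM with shPtbp1, 2362 and 2431 with shNT and 3062 and 3221 with MGT alone (log2 fold change 0.49). Tpm2 had 422 and 425 scaled CPM with shPtbp1, 652 and 684 with shNT and 629.9 and 681 with MGT alone (log2 fold change -0.66). Ptbp2 is itself one of the 7. The 3 lower became 1 without shPtbp1 replicate 2 and 1 without shNT replicate 1.

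Of 22 muscle and neuronal splicing regulators tested of 29, 7 were higher (31.8%) and 4 lower (18.2%), against 18.7% and 19.6% of all genes. The 7 became 4 without shPtbp1 replicate 2 or without shNT replicate 2. Mbnl1 and Mbnl3 of the muscleblind family, which controls the fetal to adult switch of many muscle exons, were lower. Mbnl1 had 139.7 and 138 scaled CPM with shPtbp1, 182 and 188 with shNT and 168 and 183 with MGT alone (log2 fold change -0.41). Mbnl3 had 12.9 and 11.3 scaled CPM with shPtbp1, 20.0 and 19.4 with shNT and 8.86 and 8.83 with MGT alone (log2 fold change -0.69). Mbnl3 was higher in both hairpin groups than with MGT alone. Quaking, Qk, a regulator of muscle exons, had 399 and 379 scaled CPM with shPtbp1, against 338 and 346 with shNT (log2 fold change 0.18). Rbm20, the splicing regulator of titin, had 21.7 and 20.6 scaled CPM with shPtbp1, against 22.8 and 23.6 with shNT and did not pass (adjusted p = 0.169). Of 21 hnRNP genes, the family of abundant nuclear RNA-binding proteins to which PTBP1 belongs, 2 were higher (9.5%) and 4 lower, the lower share being near that of all genes. The closely related Hnrnpf and Hnrnph1 moved in opposite directions. Hnrnpf had 482 and 490.0 scaled CPM with shPtbp1, 380.1 and 387 with shNT and 477 and 491 with MGT alone (log2 fold change 0.34). Hnrnph1 had 280.3 and 273 scaled CPM with shPtbp1, 349.8 and 354 with shNT and 259 and 262 with MGT alone (log2 fold change -0.35). In both the shPtbp1 libraries were close to the MGT level. Of 12 SR proteins, which mostly favour exon inclusion, 1 was higher (8.3%) and 2 lower (16.7%). The lower share was near that of all genes. Srsf2 had 100.4 and 106 scaled CPM with shPtbp1, against 115 and 116 with shNT (log2 fold change -0.17). Of 16 genes of the exon junction complex and nonsense-mediated decay 2 were higher (12.5%) and 4 lower (25%). Upf2 had 57.7 and 53.5 scaled CPM with shPtbp1, 69.1 and 69.6 with shNT and 57.6 and 57.6 with MGT alone (log2 fold change -0.32). Smg5 had 90.7 and 88.2 scaled CPM with shPtbp1, 104 and 103 with shNT and 91.1 and 86.3 with MGT alone (log2 fold change -0.20). Both were close to the MGT level with shPtbp1. The hnRNP counts became 1 higher without shPtbp1 replicate 2 or shNT replicate 1 and 2 lower without either shNT library. For SR proteins they became 0 higher without shPtbp1 replicate 2 or shNT replicate 2, and 1 lower without shNT replicate 2. For the decay genes they became 0 higher without shPtbp1 replicate 2 or shNT replicate 1, 1 higher without shNT replicate 2, and 2 lower without shNT replicate 1.

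Sarcomere genes, which encode the contractile unit of striated muscle, rose in 18 of 31 tested of 36 and fell in 5, with a median log2 fold change of 0.22. The M-band protein Myom2 had 469 and 466 scaled CPM with shPtbp1, 270.1 and 267 with shNT, 342 and 341 with MGT alone and 136 and 142 with the control vector, a log2 fold change of 0.80 ± 0.043 (adjusted p = 8.37e-12). The Z-disc protein Ldb3 had 319 and 320.2 scaled CPM with shPtbp1, 213 and 216 with shNT, 208 and 213 with MGT alone and 115 and 127 with the control vector (log2 fold change 0.58 ± 0.040). Cardiac troponin I, Tnni3, had 31.7 and 35.8 scaled CPM with shPtbp1, 22.2 and 22.5 with shNT, 18.9 and 21.9 with MGT alone and 8.79 and 7.67 with the control vector (log2 fold change 0.58 ± 0.065). All 3 were highest in the shPtbp1 libraries, and in Ldb3 and Tnni3 the shNT and MGT values lay close together. Of the cardiac myosin heavy chains Myh6 had 86.8 and 83.2 scaled CPM with shPtbp1, 63.0 and 65.2 with shNT and 65.7 and 64.7 with MGT alone (log2 fold change 0.40). Myh7 had 10.2 and 9.49 scaled CPM with shPtbp1, 6.30 and 7.10 with shNT and 7.21 and 7.0017 with MGT alone (log2 fold change 0.53). The ventricular light chain Myl2 had 6.85 and 7.19 scaled CPM with shPtbp1, 5.14 and 4.65 with shNT and 5.69 and 4.73 with MGT alone (log2 fold change 0.48). In all 3 the shPtbp1 libraries were the highest of the day 3 libraries. The atrial light chain Myl7 had 393 and 430.0 scaled CPM with shPtbp1, 299 and 321 with shNT and 426 and 411 with MGT alone (log2 fold change 0.41), so its shPtbp1 libraries were at the MGT level. Troponin T, Tnnt2, had 3803 and 4133 scaled CPM with shPtbp1, 3169 and 3449 with shNT and 3059 and 3245 with MGT alone (log2 fold change 0.26). The actin-binding Xin proteins went the other way. Xirp1 had 5.28 and 4.76 scaled CPM with shPtbp1, 10.7 and 10.9 with shNT, 9.59 and 9.04 with MGT alone and 5.90 and 6.14 with the control vector (log2 fold change -1.03 ± 0.069, adjusted p = 2.3e-10). Xirp2 had 1.40 and 0.674 scaled CPM with shPtbp1, 5.90 and 5.71 with shNT, 2.70 and 2.52 with MGT alone and 1.97 and 2.20 with the control vector (log2 fold change -2.08 ± 0.15, adjusted p = 8.93e-10). Both were lowest with shPtbp1 and highest with shNT. Desmin, Des, the muscle intermediate filament, had 609 and 656 scaled CPM with shPtbp1, against 645 and 677 with shNT and did not pass (adjusted p = 0.242).

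Genes of skeletal and developing muscle were mostly below the minimum, with 13 of 32 tested, of which 8 rose and 3 fell. The myogenic regulators Myod1, Myf5 and Myf6 were listed at 0 in all 4 libraries. Besides Txlnb, Trim72 and Myh8, the fast myosin Myh2 was higher, with 8.07 and 7.68 scaled CPM with shPtbp1, 3.55 and 2.78 with shNT and 9.70 and 11.1 with MGT alone (log2 fold change 1.202). The fast myosin Myh1 had 62.1 and 60.6 scaled CPM with shPtbp1, 37.2 and 36.8 with shNT and 84.9 and 98.9 with MGT alone (log2 fold change 0.72). Both were below MGT alone in both hairpin groups. Myosin heavy chain genes are close copies, so how reads fell among Myh1, Myh2 and Myh8 is uncertain. The caveolin of muscle, Cav3, had 21.0 and 22.2 scaled CPM with shPtbp1, 16.2 and 17.3 with shNT and 18.4 and 19.1 with MGT alone (log2 fold change 0.36).

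**Figure D3:**
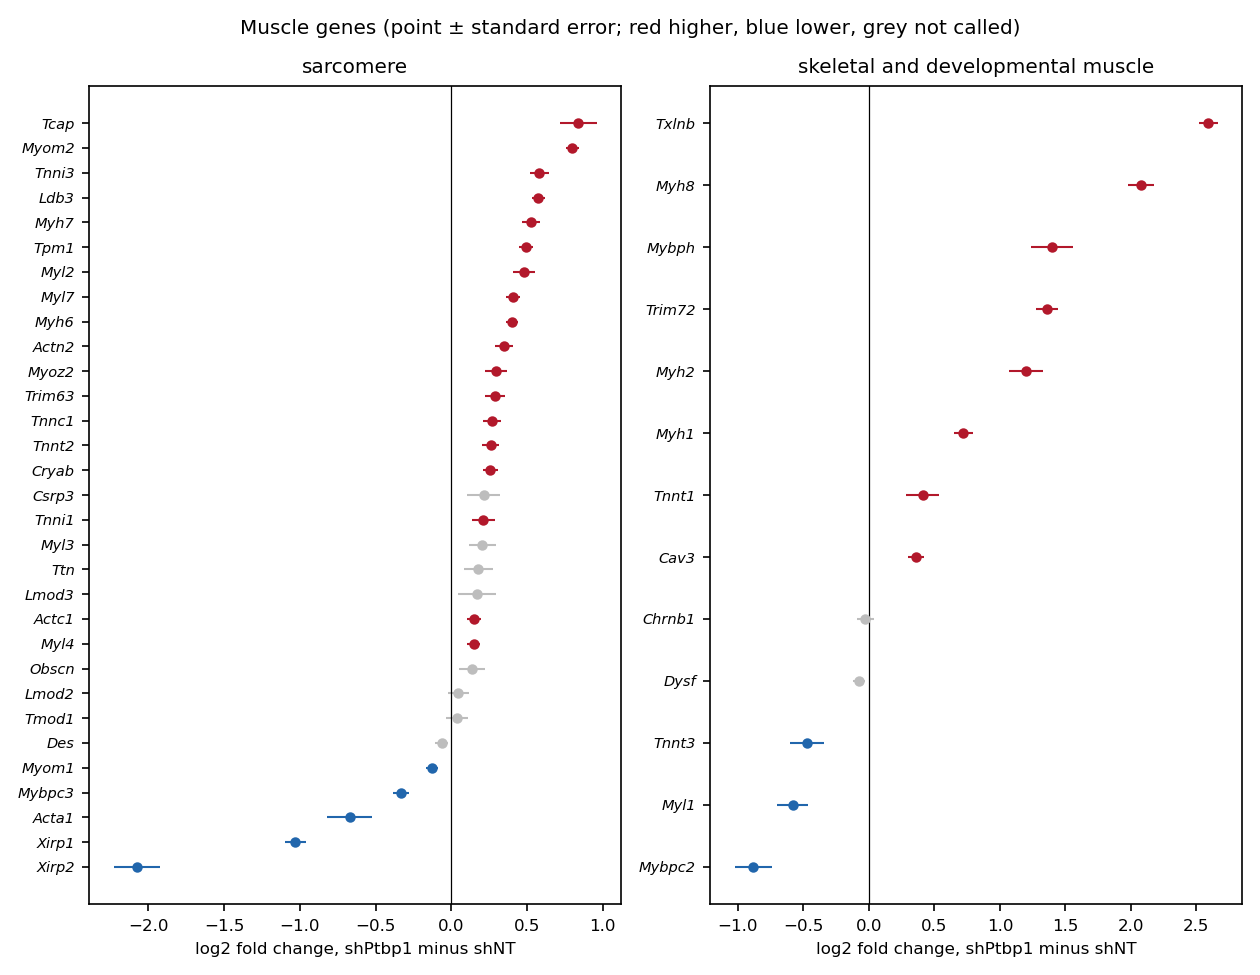
Log2 fold change of shPtbp1 over shNT for the 31 sarcomere genes and 13 genes of skeletal and developing muscle tested, as points with bars of 1 standard error, red where called higher, blue where called lower and grey otherwise. The Xin genes Xirp1 and Xirp2 are the lowest of the sarcomere genes, at -1.03 and -2.08, and Txlnb and Myh8 the highest of the other list, at 2.59 and 2.08.

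Calcium handling genes, which couple excitation to contraction, had 12 of 25 members higher (48%) and 6 lower (24%). The counts were 7 and 5 when every expressed gene was tested, and 8 or 9 higher and 4 to 6 lower without any 1 of the 4 libraries. The calcium pump of the sarcoplasmic reticulum, Atp2a2, had 1177 and 1133 scaled CPM with shPtbp1, 876 and 841 with shNT and 1094 and 1082 with MGT alone, a log2 fold change of 0.43 ± 0.039. The potassium counter-ion channel Tmem38a had 52.9 and 57.1 scaled CPM with shPtbp1, 42.1 and 43.1 with shNT and 39.6 and 42.0 with MGT alone (log2 fold change 0.36). The kinase Camk2a had 37.9 and 38.7 scaled CPM with shPtbp1, 30.2 and 30.3 with shNT and 32.5 and 31.3 with MGT alone (log2 fold change 0.34). The sodium-calcium exchanger Slc8a1 had 160.1 and 155 scaled CPM with shPtbp1, 218 and 211 with shNT and 195 and 205 with MGT alone (log2 fold change -0.45 ± 0.041), the lowest of these 3 groups with shPtbp1. Of 12 cardiac ion channel genes 2 were higher (16.7%) and 2 lower (16.7%), near the 18.7% and 19.6% of all genes. Connexin 43, Gja1, had 124 and 124 scaled CPM with shPtbp1, 101.3 and 99.6 with shNT and 140.0 and 142 with MGT alone (log2 fold change 0.30). Connexin 40, Gja5, had 6.24 and 4.87 scaled CPM with shPtbp1, 7.74 and 8.73 with shNT and 5.24 and 4.95 with MGT alone (log2 fold change -0.54). The channel genes Kcnh2 and Kcnj5 did not pass, with log2 fold changes of -0.13 and -0.11. Kcnj5 was higher in both hairpin groups than with MGT alone, at 122 and 125 scaled CPM with shPtbp1, 136 and 129.5 with shNT and 68.9 and 67.3 with MGT alone.

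Of 22 transcription factors of the heart tested of 31, 6 were higher (27.3%) and 4 lower (18.2%), against 18.7% and 19.6% of all genes, and the lower share was near that of all genes. Myocardin, Myocd, a coactivator of serum response factor, had 8.23 and 7.60 scaled CPM with shPtbp1, 15.7 and 14.0 with shNT, 12.9 and 12.8 with MGT alone and 8.02 and 9.29 with the control vector, a log2 fold change of -0.87 ± 0.081 (adjusted p = 2.83e-08), so the shPtbp1 libraries were at the control level. Gata6 had 64.8 and 69.1 scaled CPM with shPtbp1, 76.4 and 76.7 with shNT and 62.8 and 65.5 with MGT alone (log2 fold change -0.19). Nkx2-5, a defining factor of cardiomyocytes, was below the minimum. The delivered factors were at near levels in both hairpin groups. Mef2c had 546 and 514 scaled CPM with shPtbp1, 476 and 470.3 with shNT, 719.8 and 762 with MGT alone and 313 and 330.5 with the control vector (log2 fold change 0.16, adjusted p = 0.00247). Gata4 had 659 and 647 scaled CPM with shPtbp1, 645 and 626 with shNT, 683 and 702 with MGT alone and 341 and 375 with the control vector and did not pass (adjusted p = 0.474). Tbx5 had 1642 and 1759 scaled CPM with shPtbp1, 1561 and 1543 with shNT, 1769.7 and 1849 with MGT alone and 645 and 677 with the control vector (log2 fold change 0.13, adjusted p = 0.0398), a call lost without shPtbp1 replicate 2 or without either shNT library. Reads of the virus and of the endogenous genes cannot be told apart in these counts. The 6 higher factors became 3 without shPtbp1 replicate 1 and 2 without shNT replicate 2, and the 4 lower became 2 in both settings. Of 7 genes for natriuretic peptides and other cardiac products 3 were higher and none lower. Mb and Corin were given above, and the peptide gene Nppa had 14.1 and 14.7 scaled CPM with shPtbp1, against 16.0 and 14.7 with shNT and did not pass (adjusted p = 0.316).

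Fibroblast genes rose or did not pass. Of 19 fibroblast identity genes 9 were higher and none lower, with a median log2 fold change of 0.12. Without shPtbp1 replicate 1, 8 were higher and 2 lower. Dermatopontin, Dpt, had 70.0 and 72.9 scaled CPM with shPtbp1, 45.5 and 48.1 with shNT, 37.5 and 39.5 with MGT alone and 44.6 and 42.9 with the control vector (log2 fold change 0.60 ± 0.040), highest with shPtbp1. The growth factor receptor Pdgfra had 115 and 107 scaled CPM with shPtbp1, 91.0 and 91.3 with shNT and 91.4 and 93.8 with MGT alone (log2 fold change 0.28). Its relative Pdgfrb had 488 and 453 scaled CPM with shPtbp1, 366 and 353 with shNT and 371 and 376 with MGT alone (log2 fold change 0.39). In both the shNT libraries were close to MGT alone. Thy1, the surface protein used to sort the cells, had 529.9 and 621 scaled CPM with shPtbp1, 567 and 595 with shNT, 450.5 and 508 with MGT alone and 299.8 and 313 with the control vector, and the hairpin groups overlapped. Vimentin, Vim, had 4659.8 and 4802 scaled CPM with shPtbp1, 3967 and 4126 with shNT and 4246 and 4387 with MGT alone (log2 fold change 0.23).

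Of 48 extracellular matrix genes 13 were higher (27.1%) and 15 lower (31.2%), with a median of 0.007. Collagens and proteoglycans were called in both directions. The fibrillar collagen Col3a1 had 2585 and 2226 scaled CPM with shPtbp1, 1752 and 1689 with shNT and 2062 and 2006 with MGT alone (log2 fold change 0.48). Col15a1 had 88.9 and 91.4 scaled CPM with shPtbp1, 58.2 and 60.6 with shNT and 51.0 and 53.4 with MGT alone (log2 fold change 0.60). Lumican, Lum, a proteoglycan, had 47.5 and 44.7 scaled CPM with shPtbp1, 39.1 and 38.2 with shNT and 37.8 and 34.3 with MGT alone (log2 fold change 0.25). These were higher. The collagen Col5a2 was lower, with 5366 and 4748 scaled CPM with shPtbp1, 5862 and 5747 with shNT and 5627 and 5585 with MGT alone (log2 fold change -0.20, adjusted p = 0.00483), a call lost without shPtbp1 replicate 2. The matricellular protein Thbs1 had 3035 and 2863 scaled CPM with shPtbp1, 4476 and 4179.8 with shNT and 4049 and 4245 with MGT alone (log2 fold change -0.55). Postn had 2424 and 2337 scaled CPM with shPtbp1, 3115 and 3081 with shNT and 1869 and 1929 with MGT alone (log2 fold change -0.38). Postn was higher in both hairpin groups than with MGT alone. Asporin, Aspn, had 17.8 and 16.5 scaled CPM with shPtbp1, 41.3 and 42.8 with shNT, 20.4 and 21.6 with MGT alone and 27.0 and 23.2 with the control vector. Hemicentin, Hmcn1, had 28.9 and 22.4 scaled CPM with shPtbp1, 63.8 and 59.5 with shNT, 31.9 and 35.2 with MGT alone and 42.9 and 52.7 with the control vector. In both the shNT libraries were above all others. Their log2 fold changes were -1.27 and -1.26 for shPtbp1 over shNT, -0.29 and -0.39 for shPtbp1 over MGT, and 0.98 and 0.87 for shNT over MGT.

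Of 23 matrix proteases and their inhibitors 9 were higher (39.1%) and 6 lower (26.1%), against 18.7% and 19.6% of all genes. The stromelysin Mmp3 had 28.8 and 30.1 scaled CPM with shPtbp1, 15.6 and 14.1 with shNT and 32.2 and 28.5 with MGT alone (log2 fold change 0.97). Adamts15 had 28.3 and 25.5 scaled CPM with shPtbp1, 14.4 and 12.1 with shNT and 23.3 and 21.4 with MGT alone (log2 fold change 1.00). Mmp11 had 53.2 and 53.1 scaled CPM with shPtbp1, 35.8 and 35.2 with shNT and 37.1 and 35.0 with MGT alone (log2 fold change 0.57). Mmp3 and Adamts15 stood low in the shNT libraries, whereas in Mmp11 the shPtbp1 libraries stood high. Adamts12 had 363 and 316 scaled CPM with shPtbp1, 515 and 494 with shNT and 384 and 413 with MGT alone (log2 fold change -0.57), lowest with shPtbp1. The macrophage elastase Mmp12 had 81.7 and 80.3 scaled CPM with shPtbp1, 172 and 173 with shNT, 537 and 521 with MGT alone and 299 and 278 with the control vector, a log2 fold change of -1.09 ± 0.043, and both hairpin groups lay below the wells with no hairpin. Macrophage markers are given further on, and their part in this result was not tested.

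Contractile and actin genes fell more often than they rose. Of 22 genes of smooth muscle and myofibroblasts 10 were lower and 3 higher. Calponin, Cnn1, had 20.2 and 20.7 scaled CPM with shPtbp1, 34.8 and 37.7 with shNT, 37.8 and 38.4 with MGT alone and 56.0 and 53.2 with the control vector (log2 fold change -0.81 ± 0.070, adjusted p = 1.05e-08). Caldesmon, Cald1, had 1297 and 1245 scaled CPM with shPtbp1, 1870.4 and 1883 with shNT and 1566 and 1645 with MGT alone (log2 fold change -0.56). The non-muscle myosin Myh10 had 529 and 484 scaled CPM with shPtbp1, 709 and 703 with shNT and 488 and 526 with MGT alone (log2 fold change -0.48). Ctgf, a target of the mechanosensitive YAP pathway, had 1538 and 1600.4 scaled CPM with shPtbp1, 2429 and 2398 with shNT and 1979 and 2187 with MGT alone (log2 fold change -0.62). Cnn1, Cald1 and Ctgf were lowest with shPtbp1, while Myh10 was at the MGT level with shPtbp1 and higher with shNT. Of 31 genes of actin dynamics 15 were lower and 2 higher, with a median of -0.093. Beside the formin Fmnl3, filamin A, Flna, which crosslinks actin filaments, fell. Flna had 2414 and 2168 scaled CPM with shPtbp1, 3512 and 3392 with shNT, 3335 and 3358 with MGT alone and 3609 and 4141 with the control vector (log2 fold change -0.59 ± 0.058). The shPtbp1 libraries lay below all other day 3 libraries. Enah, which promotes filament growth, had 58.0 and 54.5 scaled CPM with shPtbp1, 78.1 and 77.9 with shNT and 57.3 and 57.4 with MGT alone (log2 fold change -0.47). The formin Daam1 had 117 and 108 scaled CPM with shPtbp1, 146 and 143 with shNT and 101.5 and 104 with MGT alone (log2 fold change -0.36). In both the shNT libraries were above MGT alone. Profilin 2, Pfn2, had 36.6 and 40.0 scaled CPM with shPtbp1, 26.0 and 27.6 with shNT and 22.6 and 22.4 with MGT alone (log2 fold change 0.50), highest with shPtbp1. Cytoplasmic actin, Actg1, had 2819.9 and 2934 scaled CPM with shPtbp1, 3515 and 3543 with shNT and 3357 and 3454 with MGT alone (log2 fold change -0.29). The 2 higher actin genes became 4 without shPtbp1 replicate 1.

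Cell cycle genes were lower in small steps. Of 31 DNA replication genes 19 were lower and 1 higher, with a median log2 fold change of -0.18. Of 26 mitosis genes 17 were lower and 1 higher, with a median of -0.20. Thymidylate synthase, Tyms, had 20.3 and 20.2 scaled CPM with shPtbp1, 27.9 and 28.7 with shNT, 26.9 and 26.2 with MGT alone and 34.4 and 32.3 with the control vector (log2 fold change -0.47 ± 0.050, adjusted p = 1.8e-07). The initiation factor Mcm10 had 7.5 and 6.88 scaled CPM with shPtbp1, 10.1 and 10.3 with shNT, 11.3 and 12.2 with MGT alone and 14.8 and 14.2 with the control vector (log2 fold change -0.48 ± 0.075, adjusted p = 3.16e-05). Mcm2 of the replicative helicase had 39.4 and 38.3 scaled CPM with shPtbp1, 50.1 and 48.8 with shNT, 53.5 and 52.5 with MGT alone and 62.1 and 62.4 with the control vector (log2 fold change -0.34). In these 3 genes the shPtbp1 libraries were the lowest of the day 3 libraries and the control the highest. Rrm1, the large subunit of ribonucleotide reductase, was the 1 higher, at 92.6 and 93.8 scaled CPM with shPtbp1, 73.8 and 74.5 with shNT and 101 and 96.1 with MGT alone (log2 fold change 0.33), below MGT alone in both hairpin groups. The spindle checkpoint kinase Bub1 had 15.7 and 14.6 scaled CPM with shPtbp1, 20.7 and 21.2 with shNT, 20.3 and 19.9 with MGT alone and 24.6 and 22.7 with the control vector (log2 fold change -0.45 ± 0.061). The kinase Aurkb had 13.4 and 13.0 scaled CPM with shPtbp1, 17.3 and 17.7 with shNT, 16.2 and 16.4 with MGT alone and 18.3 and 20.4 with the control vector (log2 fold change -0.40). Both were lowest with shPtbp1. The midzone protein Prc1 had 68.4 and 72.6 scaled CPM with shPtbp1, 88.9 and 89.9 with shNT, 70.1 and 71.9 with MGT alone and 73.1 and 71.5 with the control vector (log2 fold change -0.34), with shPtbp1 at the MGT level and shNT above it. Cenpa, the centromeric histone, was the 1 mitosis gene higher, at 25.6 and 28.2 scaled CPM with shPtbp1, 19.9 and 20.5 with shNT and 25.8 and 26.3 with MGT alone (log2 fold change 0.40).

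Among G1 regulators 5 of 22 were higher (22.7%) and 10 lower (45.5%), the higher share being near the 18.7% of all genes. Cyclin D1, Ccnd1, had 61.0 and 69.8 scaled CPM with shPtbp1, 31.4 and 32.4 with shNT, 103 and 104 with MGT alone and 105 and 112 with the control vector, a log2 fold change of 1.02 ± 0.049 over shNT and -0.66 over MGT alone, with -1.69 for shNT over MGT alone. The cell cycle inhibitor Cdkn1c had 7.89 and 8.10 scaled CPM with shPtbp1, 12.8 and 14.1 with shNT, 6.48 and 6.51 with MGT alone and 6.32 and 6.57 with the control vector (log2 fold change -0.71). The repressor E2f7 had 10.6 and 11.7 scaled CPM with shPtbp1, 18.4 and 18.2 with shNT, 11.5 and 12.8 with MGT alone and 13.3 and 12.3 with the control vector (log2 fold change -0.70). In both the shNT libraries were highest. The retinoblastoma relative Rbl2 had 34.2 and 34.02 scaled CPM with shPtbp1, 23.3 and 22.8 with shNT and 31.9 and 34.5 with MGT alone (log2 fold change 0.56). The 5 higher became 3 without shPtbp1 replicate 2 or shNT replicate 1. Of 20 p53 targets 3 were higher (15%) and 7 lower (35%), against 18.7% and 19.6% of all genes. The growth arrest gene Gadd45a had 17.4 and 17.1 scaled CPM with shPtbp1, 12.1 and 12.6 with shNT and 23.4 and 21.6 with MGT alone (log2 fold change 0.47). The antiproliferative Btg2 had 136 and 135 scaled CPM with shPtbp1, 175 and 172 with shNT and 145 and 143 with MGT alone (log2 fold change -0.35).

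Promoters of mitosis genes are known to carry CCAAT boxes, bound by NF-Y, and the cell cycle homology region TTTGAA, bound by the DREAM complex. In RefSeq promoter windows of 250 bases before to 50 after the start (GRCm38.p6), searched on both strands for these letters, the reverse complements being ATTGG and TTCAAA, 42.8% of the 9405 members with an entry held CCAAT, 13.9% held TTTGAA and 5.81% held both. Of the mitosis genes called lower, 13 of 17 had an entry, and 10 held CCAAT, 9 TTTGAA and 8 both. The mitosis genes not called lower held them as well, with CCAAT in 8 of 9, TTTGAA in 7 and both in 7. Of the 16 replication genes called lower with an entry, 10 held CCAAT, 3 TTTGAA and 2 both. A match is a description of these letters and not of binding. The 250 bases before the start of Prc1 and Top2a are shown as mitosis genes that were called lower, with the motifs in capitals, 5′ to 3′ on the gene's strand. The first lies at chr7:80294226-80294475 on the plus strand and the second at chr11:99024190-99024439 on the minus strand.
Prc1: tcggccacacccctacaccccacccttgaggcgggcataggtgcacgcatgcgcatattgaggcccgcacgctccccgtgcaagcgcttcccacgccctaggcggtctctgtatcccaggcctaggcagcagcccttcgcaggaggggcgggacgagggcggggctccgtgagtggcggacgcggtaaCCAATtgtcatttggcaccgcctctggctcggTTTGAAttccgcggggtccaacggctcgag
Top2a: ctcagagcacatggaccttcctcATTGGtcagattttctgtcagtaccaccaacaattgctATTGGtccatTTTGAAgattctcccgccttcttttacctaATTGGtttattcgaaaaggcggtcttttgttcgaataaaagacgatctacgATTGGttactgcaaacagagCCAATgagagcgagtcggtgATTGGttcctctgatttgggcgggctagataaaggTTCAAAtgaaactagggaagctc
The Prc1 window holds 1 CCAAT box and 1 TTTGAA close to the start, and the Top2a window holds several CCAAT boxes and a TTTGAA on either strand. Top2a, a topoisomerase needed for chromosome segregation, had 101.4 and 97.7 scaled CPM with shPtbp1, against 126 and 124 with shNT, a log2 fold change of -0.33 (adjusted p = 3.57e-07). Both genes were chosen for this display with their values known, among mitosis genes called lower whose 250 bases held both motifs. That the motifs are present in these windows is thus set by the choice and is not a result.

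**Figure D4:**
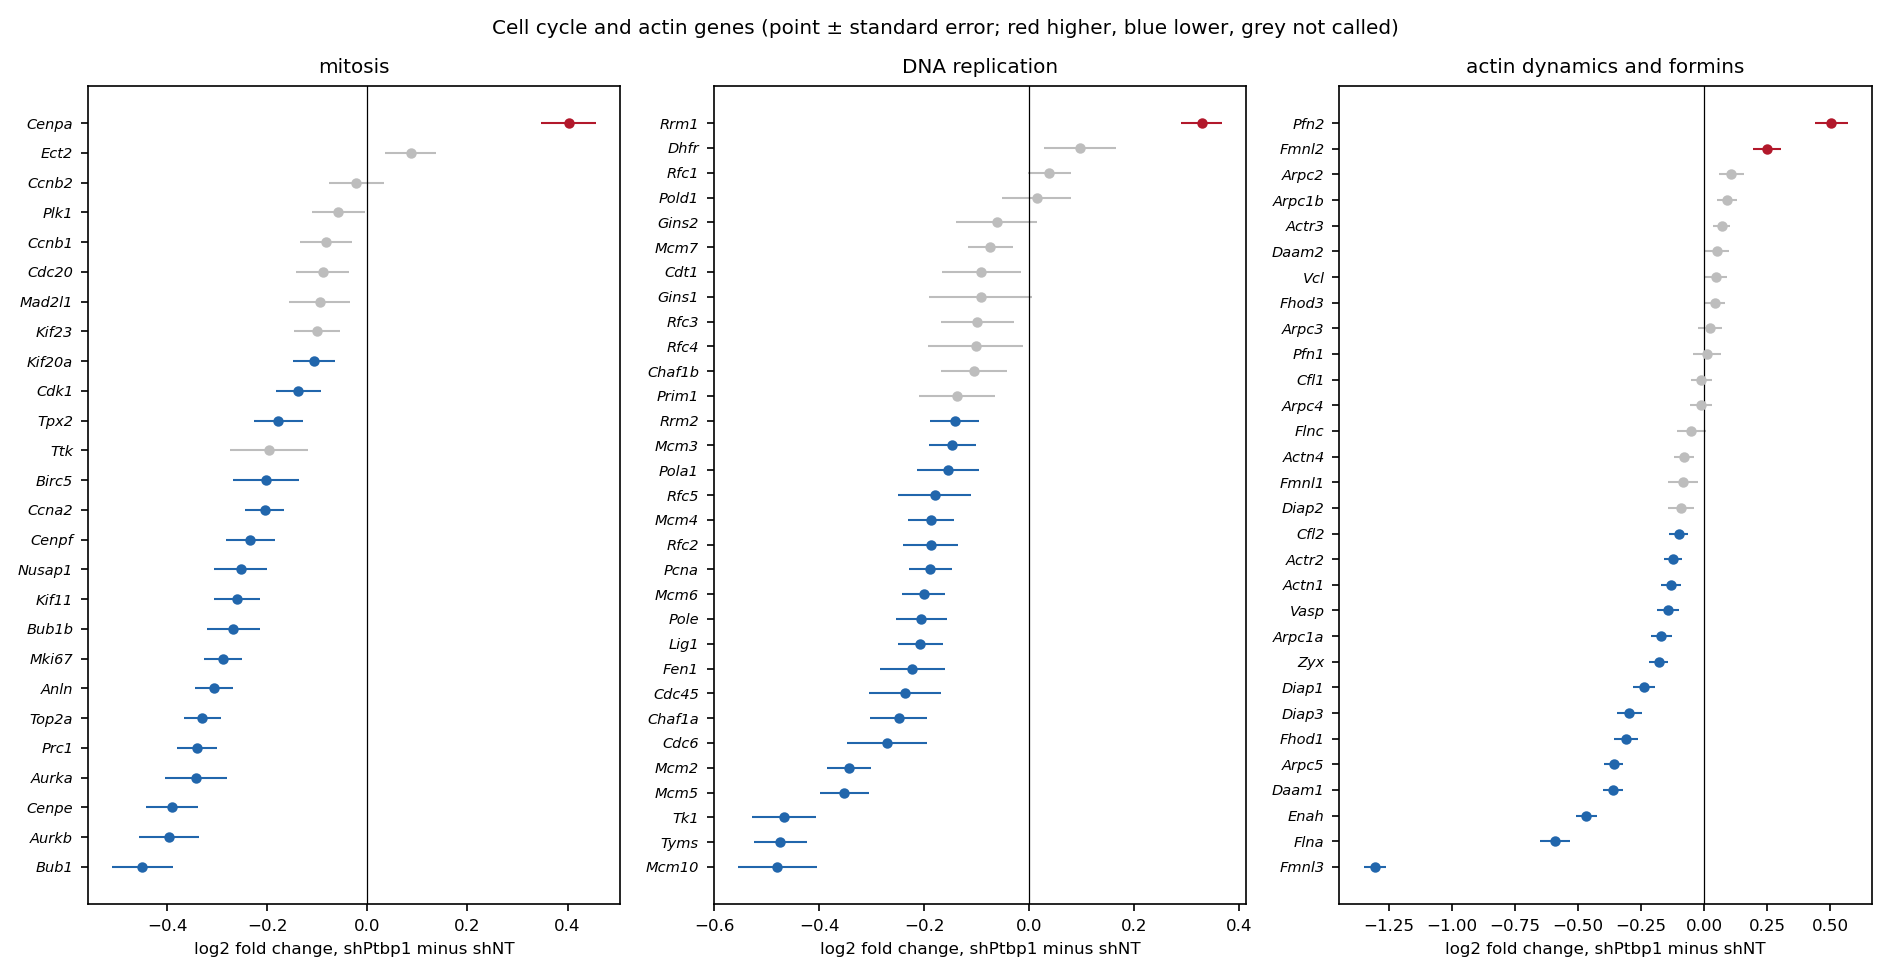
Log2 fold change of shPtbp1 over shNT for 26 mitosis, 31 DNA replication and 30 of the 31 actin genes, as points with bars of 1 standard error, red where called higher, blue where called lower and grey otherwise. Most points of the cell cycle lists lie left of 0, with Cenpa and Rrm1 at the other end, and Fmnl3, at -1.31, is the lowest of the actin genes.

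In the insulin-like growth factor axis 5 of 17 genes were higher (29.4%) and 4 lower (23.5%), the lower share being near that of all genes. The binding protein Igfbp3 had 131 and 126 scaled CPM with shPtbp1, 77.5 and 83.3 with shNT and 82.4 and 84.4 with MGT alone (log2 fold change 0.68). Its relative Igfbp4 had 32.3 and 31.4 scaled CPM with shPtbp1, 26.8 and 24.6 with shNT and 78.3 and 73.7 with MGT alone (log2 fold change 0.30). Igfbp3 stood out with shPtbp1, while Igfbp4 was low in both hairpin groups. Igf2bp3, a fetal RNA-binding protein that binds Igf2 transcripts, had 33.8 and 33.2 scaled CPM with shPtbp1, 66.6 and 63.7 with shNT, 61.3 and 62.5 with MGT alone and 54.4 and 56.6 with the control vector, a log2 fold change of -0.95 ± 0.046 (adjusted p = 1.27e-12), with both shPtbp1 libraries below all others. Of 16 genes of the fibroblast growth factor axis 6 were higher and none lower, and 3 were higher without shNT replicate 2. The ligand Fgf18 had 10.3 and 10.4 scaled CPM with shPtbp1, 4.12 and 3.81 with shNT, 7.21 and 8.94 with MGT alone and 3.52 and 2.95 with the control vector (log2 fold change 1.29). Fgfr2 was given above.

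Of 37 genes of the TGF-beta and BMP pathways 9 were higher (24.3%) and 13 lower (35.1%), against 18.7% and 19.6% of all genes. Among the ligands Bmp6 had 23.6 and 25.5 scaled CPM with shPtbp1, 16.2 and 15.2 with shNT and 14.2 and 15.1 with MGT alone (log2 fold change 0.63). The activin subunit Inhba had 42.9 and 38.1 scaled CPM with shPtbp1, 57.1 and 50.2 with shNT and 57.7 and 59.0 with MGT alone (log2 fold change -0.40). Antagonists were among the genes higher. Noggin, Nog, which binds BMPs, had 7.49 and 9.97 scaled CPM with shPtbp1, 3.15 and 3.602 with shNT and 6.40 and 6.08 with MGT alone (log2 fold change 1.24 ± 0.13). Follistatin, Fst, which binds activins, had 16.1 and 14.9 scaled CPM with shPtbp1, 9.97 and 9.99 with shNT and 26.2 and 27.6 with MGT alone (log2 fold change 0.61). Of these 2, Nog was highest with shPtbp1 and Fst with MGT alone. The type I receptor Tgfbr1 had 85.4 and 83.3 scaled CPM with shPtbp1, 112 and 111 with shNT and 117 and 114 with MGT alone (log2 fold change -0.40). Of 26 Wnt pathway genes 8 were higher and 5 lower, and the 5 became 3 without shPtbp1 replicate 2 or shNT replicate 1. The lower share of the Wnt genes, 19.2%, was near that of all genes. The receptor Fzd7 had 119.6 and 109.6 scaled CPM with shPtbp1, 87.2 and 87.1 with shNT and 103 and 107 with MGT alone (log2 fold change 0.39). The inhibitor Nkd1 had 88.9 and 92.7 scaled CPM with shPtbp1, 67.6 and 69.4 with shNT and 65.1 and 73.4 with MGT alone (log2 fold change 0.40). Both were highest with shPtbp1. Of 12 Notch pathway genes 4 were higher (33.3%) and 3 lower (25%), against 18.7% and 19.6% of all genes. The Notch target Heyl had 14.7 and 13.7 scaled CPM with shPtbp1, 25.4 and 27.0 with shNT, 13.6 and 13.9 with MGT alone and 19.6 and 18.5 with the control vector (log2 fold change -0.86 ± 0.053), with shNT above all others and shPtbp1 at the MGT level. The receptor Notch3 had 72.8 and 68.3 scaled CPM with shPtbp1, 61.2 and 57.6 with shNT and 54.2 and 54.3 with MGT alone (log2 fold change 0.25).

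Loss of PTBP1 has been reported to turn fibroblasts towards neurons in some settings, and neuronal genes were therefore listed. Of 32 such genes 13 were tested, 5 were higher (38.5%) and 6 lower (46.2%), and the median log2 fold change was -0.21. The 5 became 3 without shNT replicate 2. The adhesion molecule Ncam1 had 70.7 and 70.3 scaled CPM with shPtbp1, 48.9 and 50.1 with shNT and 50.9 and 53.2 with MGT alone (log2 fold change 0.51), highest with shPtbp1. Others were lower. The microtubule-associated protein Map2 had 16.7 and 16.7 scaled CPM with shPtbp1, 26.9 and 27.6 with shNT and 12.3 and 13.6 with MGT alone (log2 fold change -0.69). The growth cone protein Dpysl3 had 61.6 and 59.1 scaled CPM with shPtbp1, 103 and 99.0 with shNT and 66.8 and 66.1 with MGT alone (log2 fold change -0.74). The syntaxin Stx1a had 12.1 and 12.01 scaled CPM with shPtbp1, 21.9 and 22.8 with shNT and 11.9 and 12.3 with MGT alone (log2 fold change -0.86). For these 3 the shNT libraries were highest. The neuronal regulators and markers Myt1l, Dcx and Rbfox3 were below the minimum. Of 13 genes of the REST complex, which silences neuronal genes, 4 were higher (30.8%) and 1 lower (7.7%). The phosphatase Ctdsp2 had 472 and 456 scaled CPM with shPtbp1, 310.1 and 299.7 with shNT and 458 and 445 with MGT alone (log2 fold change 0.60). Its relative Ctdspl had 106 and 101.1 scaled CPM with shPtbp1, 79.0 and 80.4 with shNT and 79.3 and 80.2 with MGT alone (log2 fold change 0.37). Ctdsp2 was low with shNT and Ctdspl high with shPtbp1. The 4 became 2 and the 1 lower became 2 when shNT replicate 2 and shPtbp1 replicate 1 were left out in turn.

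Of 33 interferon response genes 10 were higher and 1 lower, but replicates differed from each other in both groups. Ifit3, an antiviral effector, had 94.6 and 70.8 scaled CPM with shPtbp1, 61.3 and 49.3 with shNT and 54.4 and 61.7 with MGT alone (log2 fold change 0.57). Isg15, a ubiquitin-like modifier, had 75.4 and 61.8 scaled CPM with shPtbp1, 55.5 and 51.3 with shNT and 52.7 and 51.4 with MGT alone (log2 fold change 0.35). Rsad2, the antiviral protein viperin, was the 1 lower, at 12.3 and 7.54 scaled CPM with shPtbp1, 23.3 and 17.7 with shNT, 14.3 and 21.5 with MGT alone and 14.2 and 16.8 with the control vector (log2 fold change -1.03). Without shPtbp1 replicate 1 there were 4 higher and 5 lower, without shPtbp1 replicate 2 there were 19 higher, without shNT replicate 1 there were 14 and without shNT replicate 2 there were 4. B2m, the light chain of MHC class I, had 1849 and 2034 scaled CPM with shPtbp1, 1519 and 1606 with shNT and 1394 and 1476 with MGT alone (log2 fold change 0.31). Of 25 inflammatory genes 6 were higher and 8 lower, the 8 becoming 5 without shNT replicate 1. The 6 and 8 were 24% and 32% of the inflammatory genes, against 18.7% and 19.6% of all genes. The chemokine Ccl7 had 34.6 and 36.2 scaled CPM with shPtbp1, 18.7 and 16.4 with shNT, 55.9 and 55.8 with MGT alone and 78.7 and 75.9 with the control vector (log2 fold change 0.99), with shNT lowest. Complement C3 had 56.3 and 54.0 scaled CPM with shPtbp1, 41.8 and 37.8 with shNT and 58.2 and 56.9 with MGT alone (log2 fold change 0.47). Other chemokines were lower. Cxcl16 had 18.8 and 19.2 scaled CPM with shPtbp1, 40.1 and 40.8 with shNT, 42.5 and 43.4 with MGT alone and 56.6 and 57.3 with the control vector (log2 fold change -1.07). Cxcl12 had 91.6 and 99.8 scaled CPM with shPtbp1, 119 and 122 with shNT, 131 and 128 with MGT alone and 157 and 160.4 with the control vector (log2 fold change -0.33). Both were lowest with shPtbp1.

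Housekeeping lists shifted together by small amounts. Of 34 ribosomal protein genes 27 were higher and none lower, with a median log2 fold change of 0.16. Of 37 oxidative phosphorylation genes 15 were higher and none lower, with a median of 0.11. Rps4x had 737 and 775 scaled CPM with shPtbp1, 654 and 677 with shNT and 705 and 688 with MGT alone (log2 fold change 0.18 ± 0.038, adjusted p = 0.000604). The complex I subunit Ndufa9 had 53.6 and 54.3 scaled CPM with shPtbp1, 45.6 and 46.8 with shNT and 54.5 and 53.4 with MGT alone (log2 fold change 0.22). In both genes the shNT libraries were the lowest of the day 3 libraries. The 27 became 31, 10, 12 and 24, and the 15 became 24, 3, 4 and 11, without shPtbp1 replicate 1, shPtbp1 replicate 2, shNT replicate 1 and shNT replicate 2 in turn. Calls also differed with exonic length. Of the 2972 members with the shortest exonic length, up to 2905 bases, 22.9% were called higher and 11.7% lower, with a median log2 fold change of 0.048. Of the 2972 longest, from 7000 bases, 16.0% were higher and 28.4% lower, with a median of -0.044. Measured per library against the mean of the day 3 libraries, the shortest genes stood at -0.031 and 0.077 log2 units relative to the longest with shPtbp1, and at -0.099 and -0.033 with shNT. With MGT alone they stood at -0.0018 and -0.023, and with the control vector at 0.083 and 0.024. Both shPtbp1 values lay above both shNT values, though those of shPtbp1 replicate 1 and shNT replicate 2 lay close together. The part of length in the ribosomal, mitochondrial and other lists was not tested.

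Of 24 fatty acid oxidation genes 5 were higher (20.8%) and 4 lower (16.7%), near the 18.7% and 19.6% of all genes. The fatty acid carrier Fabp4 had 13.3 and 13.7 scaled CPM with shPtbp1, 6.79 and 6.95 with shNT, 21.2 and 21.2 with MGT alone and 19.2 and 17.6 with the control vector (log2 fold change 0.93 ± 0.044). The fatty acid receptor Cd36 had 153 and 151 scaled CPM with shPtbp1, 219.7 and 222 with shNT, 299.8 and 309.7 with MGT alone and 248 and 237 with the control vector (log2 fold change -0.54 ± 0.035). Fabp4 was lowest with shNT and Cd36 lowest with shPtbp1. The 5 became 3 without shPtbp1 replicate 2 or shNT replicate 2, and the 4 became 2, 2 and 1 without shPtbp1 replicate 1, shNT replicate 1 and shNT replicate 2. Of 22 glycolysis genes 4 were higher and 9 lower, the 9 becoming 5 without shNT replicate 1. The higher share, 18.2%, was near that of all genes. The isoforms of muscle, Eno3 and Pgam2, were among the 4 higher. Eno3 had 95.7 and 99.7 scaled CPM with shPtbp1, 63.5 and 71.6 with shNT and 93.7 and 92.1 with MGT alone (log2 fold change 0.53). Pgam2 had 49.0 and 52.0 scaled CPM with shPtbp1, 36.9 and 41.2 with shNT and 34.2 and 34.2 with MGT alone (log2 fold change 0.37). The lactate transporter Slc16a3, given above, is on this list and was among the 9 lower (log2 fold change -1.09). More widely expressed genes were also among the lower. The liver-type phosphofructokinase Pfkl had 83.7 and 86.7 scaled CPM with shPtbp1, 114 and 112 with shNT and 94.6 and 93.7 with MGT alone (log2 fold change -0.41). The glucose transporter Slc2a1 had 62.3 and 56.4 scaled CPM with shPtbp1, 78.1 and 73.2 with shNT and 79.7 and 79.9 with MGT alone (log2 fold change -0.35). Of 23 cholesterol synthesis genes 9 were lower and 1 higher. Hmgcs1, an early synthase of the pathway, was the 1 higher, with 77.7 and 74.6 scaled CPM with shPtbp1, 66.2 and 62.6 with shNT and 68.8 and 72.2 with MGT alone (log2 fold change 0.24). Of 25 genes of the unfolded protein and integrated stress responses 12 were higher and 2 lower. The chaperone Hspa5 had 765 and 768 scaled CPM with shPtbp1, 616 and 615 with shNT and 758 and 768 with MGT alone (log2 fold change 0.32). The chaperone Canx had 706 and 685 scaled CPM with shPtbp1, 556 and 546 with shNT and 688 and 689.6 with MGT alone (log2 fold change 0.34). In both shPtbp1 was at the MGT level and shNT below it. The stress factor Atf3 had 14.6 and 14.7 scaled CPM with shPtbp1, 26.7 and 27.4 with shNT, 27.6 and 28.1 with MGT alone and 25.6 and 28.8 with the control vector (log2 fold change -0.86 ± 0.047), and its shPtbp1 libraries were below all others. Of 21 autophagy genes 4 were higher and 5 lower, both shares being near the 18.7% and 19.6% of all genes. Map1lc3b, which coats autophagosomes, had 245 and 259 scaled CPM with shPtbp1, 178 and 190.1 with shNT and 228 and 225 with MGT alone (log2 fold change 0.45).

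Markers of other cells that a Thy1 sort could hold were detected in part. Of 17 cardiomyocyte markers tested 12 were higher and 1 lower, with a summed level of 6596 and 7076 CPM with shPtbp1 and 5639 and 6024 with shNT. Most of these markers are also on the sarcomere list, so the counts of the 2 lists share genes. Tnnt2 stood at 2423 and 2186 scaled CPM in the control wells, which had no factors, so the cultures held such transcripts without MGT. Of 19 macrophage markers 9 were lower and 2 higher, the close copies Lyz1 and Lyz2, with a sum of 2409 and 2441 CPM with shPtbp1 and 2221 and 2281 with shNT. The complement gene C1qa had 44.9 and 42.3 scaled CPM with shPtbp1, 59.3 and 61.8 with shNT, 289 and 277 with MGT alone and 323 and 312 with the control vector (log2 fold change -0.47). The receptor Csf1r had 41.2 and 37.6 scaled CPM with shPtbp1, 52.7 and 49.7 with shNT, 173 and 170.0 with MGT alone and 192 and 206 with the control vector (log2 fold change -0.37). The pan-leukocyte Ptprc had 24.3 and 24.6 scaled CPM with shPtbp1, 32.3 and 30.2 with shNT, 54.1 and 56.0 with MGT alone and 58.6 and 59.1 with the control vector (log2 fold change -0.35). The shPtbp1 libraries were the lowest in these 3. Lysozyme, Lyz1, had 72.3 and 71.9 scaled CPM with shPtbp1, 53.6 and 53.04 with shNT and 151 and 118 with MGT alone (log2 fold change 0.43). Each of these 4 genes was lower in both hairpin groups than in the wells with no hairpin, and none was at 0 in all 4 libraries. Their part in the lower Mmp12, Il1rn and Cxcl16 was not tested. Cd14, a monocyte receptor on the list, had 9.97 and 10.8 scaled CPM with shPtbp1, 18.4 and 14.96 with shNT, 39.2 and 38.6 with MGT alone and 54.2 and 57.2 with the control vector (log2 fold change -0.65).

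Of 11 epicardial and mesothelial markers 6 were lower and 3 higher, with a sum of 374 and 358 CPM with shPtbp1 and 365 and 361 with shNT. Lrrn4 had 18.5 and 16.6 scaled CPM with shPtbp1, 28.3 and 26.6 with shNT, 9.11 and 9.27 with MGT alone and 20.3 and 22.2 with the control vector (log2 fold change -0.63). Upk1b had 61.9 and 60.9 scaled CPM with shPtbp1, 47.5 and 48.5 with shNT, 49.2 and 50.7 with MGT alone and 36.2 and 36.3 with the control vector (log2 fold change 0.35). The 3 became 2 without shPtbp1 replicate 1 or shNT replicate 1 and 1 without shNT replicate 2. Of 13 endothelial markers 3 were higher and 2 lower, with a sum of 615 and 619 CPM with shPtbp1 and 648 and 640.2 with shNT, and the 3 became 1 without shNT replicate 2 and the 2 became 1 without shPtbp1 replicate 2 or either shNT library. The endothelial shares, 23.1% higher and 15.4% lower, were near those of all genes. The endothelial cadherin Cdh5 had 27.1 and 28.5 scaled CPM with shPtbp1, 28.0 and 26.5 with shNT, 15.7 and 18.7 with MGT alone and 29.3 and 30.6 with the control vector and did not pass (adjusted p = 0.709). Of 7 pericyte markers 4 were higher and 2 lower, with a sum of 1444 and 1443 CPM with shPtbp1 and 1397 and 1418 with shNT. Of 8 Schwann cell markers 3 were tested and 1, Mbp, was lower, with sums of 11.1 and 12.05 CPM with shPtbp1 and 14.1 and 14.3 with shNT. Of 10 lymphocyte markers 2 were tested, 1 higher (0 without shPtbp1 replicate 2 or without either shNT library) and 1 lower, and Cd3e and Cd3g were listed at 0. No erythroid marker of 7 was tested, and the globin genes Hba-a1 and Hba-a2 were listed at 0.

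**Figure D5:**
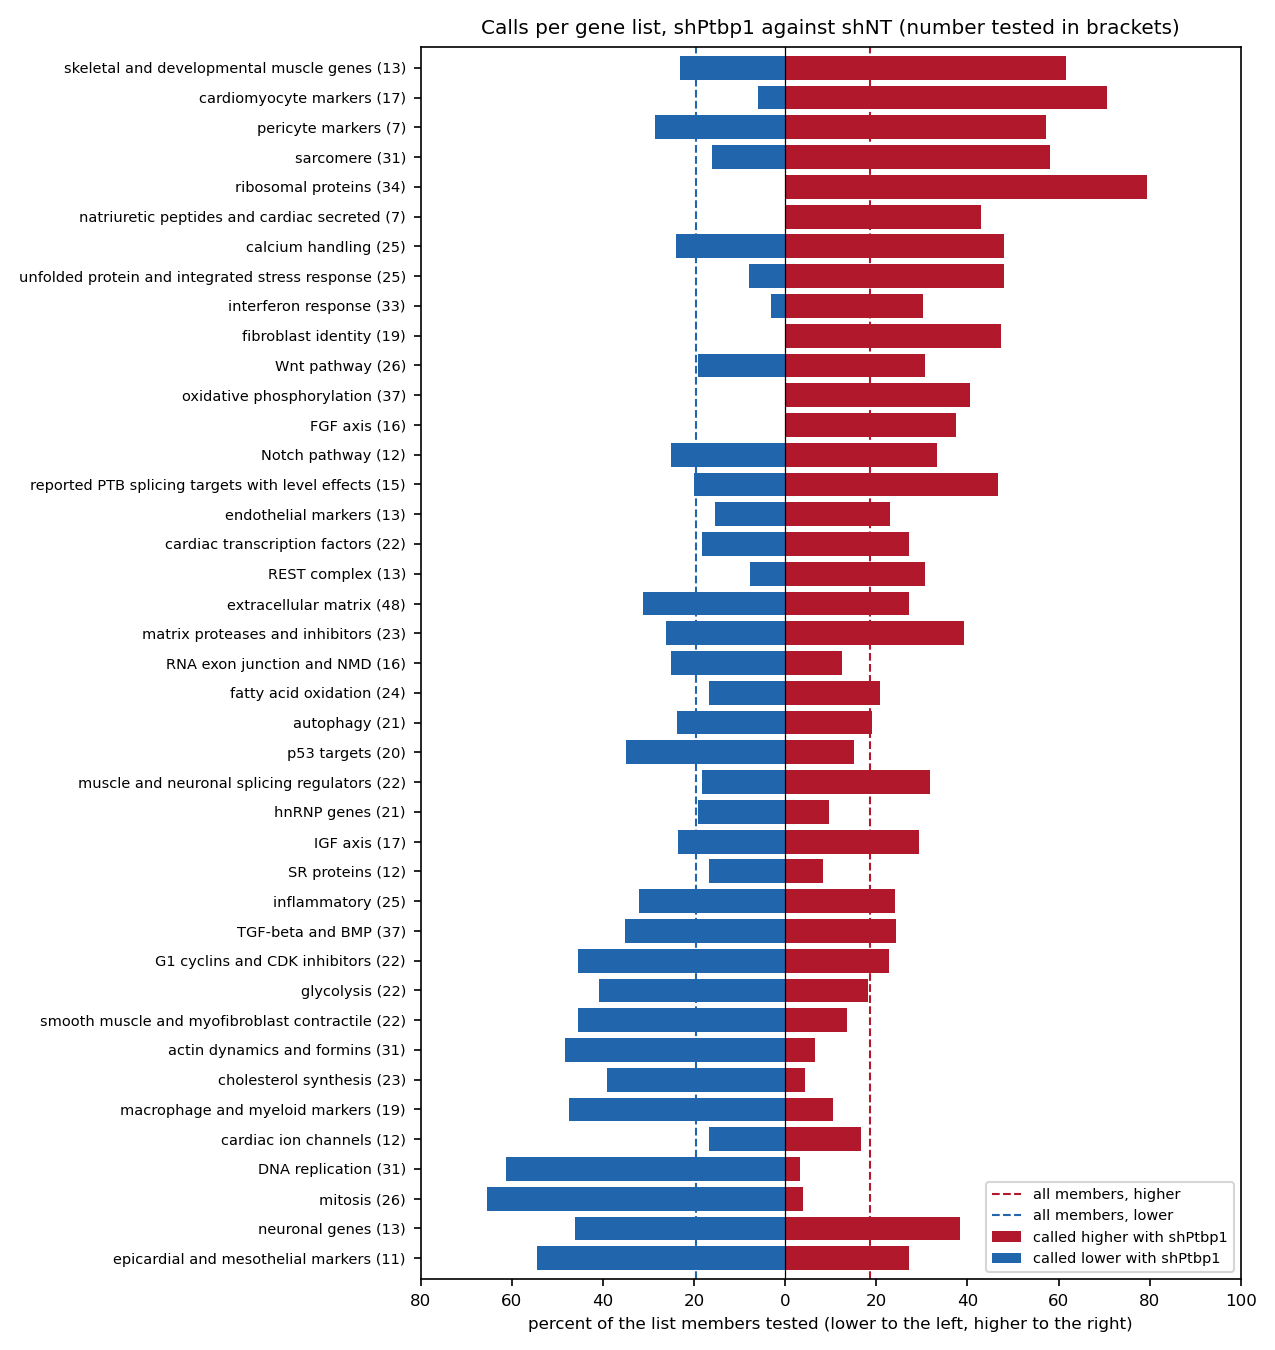
Percent of the tested members of each gene list with at least 5 of them called higher with shPtbp1 (red, to the right) or lower (blue, to the left), with the number tested in brackets and lists ordered by median log2 fold change. Dashed lines mark the shares over all 12636 genes, 18.7% higher and 19.6% lower; among the lists drawn, mitosis and DNA replication reach furthest to the left, and ribosomal proteins and cardiomyocyte markers furthest to the right.

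Called genes were also described by their annotated structure. Of the members, 94.1% were matched to the annotation. The median exonic length was 4156 bases for genes called higher, 5743 for genes called lower and 4402 for genes not called. A transcript annotated to nonsense-mediated decay was present in 24.2% of the genes called higher, 28.5% of those called lower and 29.3% of those not called. These shares are descriptions, since genes are not replicates.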

How the data were processed

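The authors deposited one table of CPM (reads per 1000000 assigned reads) for 12 bulk libraries. Per the labels' protocols, RNA was taken with TRIzol and libraries were made with a stranded mRNA kit. The submitters' processing notes name FastQC, TopHat2 2.1.0, HTSeq 0.6.1p1 and mm10. No source used here gives the annotation or the strand setting, and antisense, overlapping and near-identical genes are uncertain.

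CPM were divided by median-of-ratios factors (0.972 to 0.975 in the 4 libraries) and tested as log2(scaled CPM + 0.5) with limma 3.58.1 in R 4.3.3, in one fit of all 12 libraries with a term per group, on genes with at least 1 CPM in 2 of the 4 libraries. The script was run on simulated data in which every gene had the same dispersion and libraries were drawn independently. These data need not follow that, so the simulation gives no support to the calls reported here. With 2 libraries a group an exact permutation test cannot go below p = 0.333. All CPM gave whole reads within 0.1, and edgeR 4.0.16 on these reads was an alternative. Other alternatives changed the scaling, pseudocount, filter and libraries. Members, gene lists and the rule for named genes (largest changes overall and per list, and defining markers) were chosen with earlier results of these data known. Among all genes 27 names had been turned into numbers or dates and were not named. A few genes counted in their lists are not reported here by name.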

Additional observations from a re-analysis of the deposited data

How the results depend on the processing

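Genes called higher numbered 2099 to 2402 and genes called lower 2197 to 2507 over the 13 alternatives that kept all libraries of the 2 groups, against 2364 and 2474 in the reported fit. Leaving out 1 library gave 1673 to 2153 higher and 1673 to 2301 lower, with the lone library assumed to vary like the other groups. The 57 genes at least 2-fold higher became 20 with a pseudocount of 2 and 91 with edgeR, and the 30 lower became 47 with a pseudocount of 0.1, 12 with a pseudocount of 2 and 55 with edgeR. Leaving out 1 library gave 56 to 62 and 24 to 40. With every expressed gene tested, 5 interferon genes were higher in place of 10, and more genes were then tested. Leaving out 1 library gave 4 to 19 higher interferon genes, 3 to 24 for oxidative phosphorylation and 10 to 31 for ribosomal proteins, for which the cause was not tested. The log2 fold change of Ptbp1 kept its direction and call in all of these. A fit with replicate number as a block called 2318 genes higher and 2422 lower. The numbers are not stated to pair samples. Over genes, the deviations of shPtbp1 replicate 1 and shNT replicate 1 from their group means had a correlation of 0.214. With 2 libraries a group, the deviations of replicate 2 mirror these and add no second value. Of 268 named genes 244 were called, and of 4553 values under alternatives 127 lost the call, 13 gained it and 0 changed direction. A change of direction was counted only where the gene was called in the reported or the alternative fit. Of genes under 5 scaled CPM 28.4% were called, against 46.7% at 50 or more.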
